A study of Homo sapiens with 2 samples.

Results

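The inflammatory chemokines CXCL1, CXCL2, CXCL3, CXCL5, CXCL6, CXCL8, CCL2, CCL5, CCL20 and CX3CL1 were followed in A375 melanoma cells after knockdown of THOC2. Every probe that the deposited annotation gives one of these 10 symbols was taken, which gave 12 probes of the 58199 non-control probes on the array, and 10 genes of 34757 gene symbols. CXCL1 and CXCL2 have 2 probes each, and the other 8 genes have 1. A375 is an established human cell line from a melanoma. THOC2 is a subunit of the THO complex, which couples transcription to export of mRNA from the nucleus. The question was which transcripts differ when THOC2 is reduced. Cells of one culture received si-THOC2, a small interfering RNA against THOC2, and cells of the other received NC, a control siRNA. RNA of each was taken 48 h after transfection and hybridized to 1 single-colour Agilent array. Both groups are this 1 line, grown in the same medium per the labels, and the title of the si-THOC2 sample carries a code that the sources used here do not tie to a particular one of the study's THOC2 siRNAs.

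Chemokines are small secreted proteins that bind receptors on leukocytes and draw these cells towards their source. CXCL1, CXCL2, CXCL3, CXCL5, CXCL6 and CXCL8 carry the ELR motif and attract neutrophils through CXCR2, and CXCL6 and CXCL8 also act on CXCR1. CCL2 attracts monocytes through CCR2, CCL5 attracts T cells and monocytes, CCL20 acts on CCR6, and CX3CL1 is made as a membrane protein whose released part acts on CX3CR1. Melanoma cells are known to make several of them, and CXCL1 was first described as a melanoma growth factor. The transcription factor NF-kB drives many of these genes in response to interleukin-1 and TNF, and their mRNAs are short-lived.

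With 1 array per condition there was no replicate. How much cultures of one condition vary is unknown, the conditions could not be tested against each other, and each difference below is between these 2 arrays. Level is given as the processed signal, an intensity in arbitrary units after background subtraction by the scanner software. Because the probes differ in binding, levels were compared between arrays and never between probes. A difference is the log2 of the processed signal, less the 75th percentile of its own array, on the THOC2 siRNA array minus the same on the NC array. That percentile was 0.31 higher on the NC array on the log2 scale, so a probe with equal signals on both arrays has a difference of 0.31. By the scanner software's mark, 24616 probes (42.3%) stood well above background with NC and 22936 (39.4%) with si-THOC2. A probe was compared when it was well above background on at least 1 array, which held for 25345 probes. The source field of each sample names the opposite condition to its title and description, and the latter were followed. Of the 15 listed melanoma marker probes 8 were compared, with 4 below 0 and 4 above. The melanoma marker SOX10 had signals of 6196 (NC) and 5196 (si-THOC2), while PMEL and TYR were not well above background on either array. VIM had a difference of 0.07, MITF had -0.02 and -0.04 at its compared probes, and S100A1 had -0.20 and 0.01. S100B and MLANA are given further below. The leukocyte markers CD3E, CD14 and CSF1R and 1 of the 5 probes of PTPRC were close to background, with signals between 24.0 and 37.4 on both arrays, the other 4 PTPRC probes were above it on neither, and the fibroblast marker DCN had signals of 62.4 and 149. Of the listed marker probes, 4 of 11 for leukocytes, 5 of 9 for endothelial cells, 3 of 6 for keratinocytes and 1 of 6 for fibroblasts were above background on at least 1 array, and their part in the results was not tested.

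Both THOC2 probes (Xq25, minus strand) were lower on the array that the titles assign to si-THOC2. The probe at chrX:122734486-122734545 (hg19) had signals of 136 (NC) and 40.9 (si-THOC2), a difference of -1.42. The probe at chrX:122747960-122748019 had 67.3 and 35.1, a difference of -0.63. Normexp background correction, an alternative that models the background of each spot, moved the mean of both from -1.03 to -0.51.

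Both arrays measured 11 of the 12 chemokine probes well above background, and the remaining probe, that of CXCL6, was so on neither. None of the 11 differed by 2-fold in either direction, nor did any of the 9 genes they stand for. Among all compared probes 3.33% were lower and 2.93% were higher by 2-fold or more, and among the 22207 probes well above background on both arrays 0.365% were lower and 0.829% were higher. Counted by gene, the shares of all genes were 3.34% and 2.96%. The chemokines did not share a direction. CCL2, CCL5 and CX3CL1 were lower with si-THOC2, and CXCL5 lay close to 0. Both probes of CXCL1 and of CXCL2, and those of CXCL3, CXCL8 and CCL20, were above 0. Over the 11 probes the median difference was 0.18, against 0.03 over all compared probes. Below 0 were 4 of the 11, against 46.4% of all compared probes. In RNA of a whole culture, fewer cells making a chemokine and less of its mRNA per cell cannot be told apart.

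**Figure D1:**
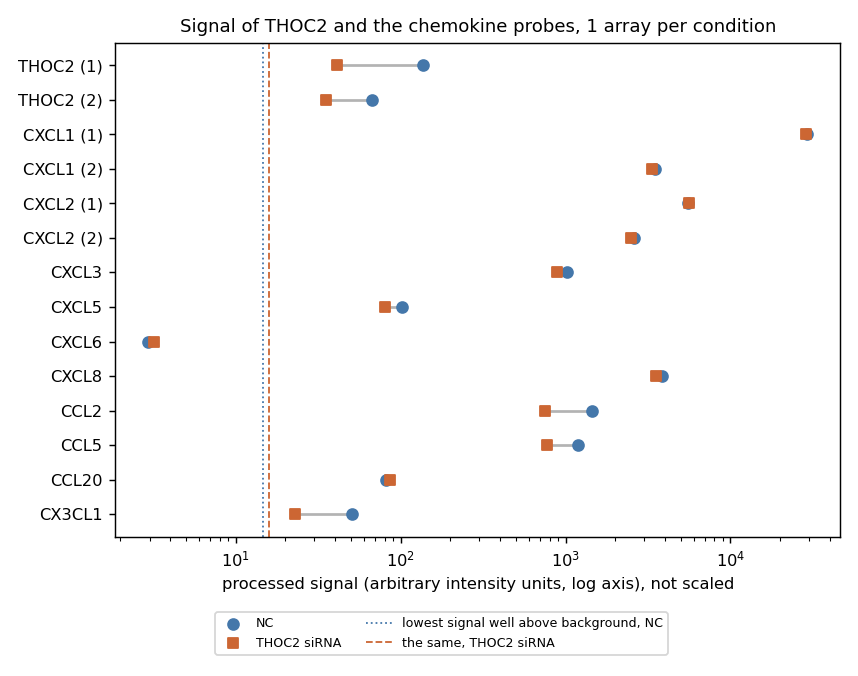
Processed signal (arbitrary intensity units, log axis, not scaled between arrays) of THOC2 and the chemokine probes on the NC array (circles) and the THOC2 siRNA array (squares), 1 array per condition, with dotted and dashed lines at the lowest signal called well above background on each array (14.7 with NC and 15.9 with si-THOC2). CCL2, CCL5 and CX3CL1 have clearly lower signal with si-THOC2, the circles and squares of CXCL1, CXCL2 and CXCL8 almost coincide, and both CXCL6 points lie left of the lines; (1) and (2) number the probes of a gene in the order of the text.

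The probes of the CXC members lie together at 4q13.3, between 74609265 and 74964401 on chromosome 4 (hg19). Their upstream sequences, with that of CCL20, are shown because NF-kB control is what these genes share as background and because 6 of these promoters hold the same NF-kB sequence in nearly the same place. The RefSeq promoters (GRCh38.p14) matched 7 of the 10 genes, and CCL2, CCL5 and CX3CL1 had no entry. Each line gives, 5′ to 3′ on the strand of the gene, the bases from 140 to 21 before the transcription start. Capitals mark GGAATTTCC, a kappa-B sequence, and in CXCL8 also the AP-1 sequence TGACTCA.
CXCL8 (chr4:73740429-73740548, plus): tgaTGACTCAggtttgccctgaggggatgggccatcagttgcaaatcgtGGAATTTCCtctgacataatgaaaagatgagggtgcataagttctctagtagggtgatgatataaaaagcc
CXCL6 (chr4:73836538-73836657, plus): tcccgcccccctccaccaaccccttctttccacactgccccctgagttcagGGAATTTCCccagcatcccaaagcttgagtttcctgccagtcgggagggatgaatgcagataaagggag
CXCL1 (chr4:73869253-73869372, plus): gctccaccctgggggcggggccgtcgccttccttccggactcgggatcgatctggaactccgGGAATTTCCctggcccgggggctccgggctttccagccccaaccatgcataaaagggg
CXCL5 (chr4:73998698-73998817, minus): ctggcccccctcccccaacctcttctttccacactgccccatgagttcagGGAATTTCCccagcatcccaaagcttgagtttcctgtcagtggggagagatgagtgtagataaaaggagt
CXCL3 (chr4:74038710-74038829, minus): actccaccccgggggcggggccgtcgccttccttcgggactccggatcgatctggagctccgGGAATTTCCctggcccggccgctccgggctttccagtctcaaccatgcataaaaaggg
CXCL2 (chr4:74099216-74099335, minus): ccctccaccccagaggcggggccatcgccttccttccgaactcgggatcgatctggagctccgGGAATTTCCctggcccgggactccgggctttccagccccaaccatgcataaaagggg
CCL20 (chr2:227813702-227813821, plus): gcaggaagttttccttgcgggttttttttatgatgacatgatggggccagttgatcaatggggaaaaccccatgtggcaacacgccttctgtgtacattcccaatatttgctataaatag

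GGAATTTCC was searched on both strands in the 250 bases before the start of 35116 promoters, and 145 of them (0.413%) held it. All 6 CXC promoters held it on the strand of the gene. It began 91 bases before the start in CXCL8, 90 in CXCL5, 89 in CXCL6, 78 in CXCL1 and CXCL3 and 77 in CXCL2. TGACTCA was in 4.20% of promoters and, of these 7, in that of CXCL8 alone. The broader kappa-B consensus was in 9.96% of promoters and in 6 of these 7, with CCL20 in place of CXCL8, and in the other 5 it overlapped GGAATTTCC. The stretches are shown because 6 of them hold GGAATTTCC, so its presence in all 6 is no test. Some of these promoters are alike over their length, so their matches are not independent. A match describes these letters and was not tested as a site. The promoters of CXCL5 and CXCL6 were the most alike, with 85.3% identity over their alignment, and those of CXCL1 and CXCL3 followed with 81.4%.

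The probes of the CXC members differed little between the arrays, and none by more than 0.34. CXCL1, a ligand of CXCR2, had signals of 29337 (NC) and 28612 (si-THOC2) at its first probe (chr4:74736850-74736909, hg19, plus strand), a difference of 0.27. Its other probe (chr4:74735646-74735705) had 3495 and 3328, a difference of 0.24. Relative to the array as a whole, both probes were slightly higher with si-THOC2, and they stayed above 0 in all 6 other scalings and corrections.

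CXCL2, a close relative of CXCL1 and likewise a ligand of CXCR2, had signals of 5505 (NC) and 5633 (si-THOC2) at its first probe (chr4:74962985-74963044, minus strand). The difference was 0.34, which 12.2% of the probes measured on both arrays reached or passed. Its other probe (chr4:74964342-74964401) had 2600 and 2485, a difference of 0.24. Both probes of CXCL2 thus lay above 0, as did both of CXCL1.

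The second probes of these genes are shown because they are nearly the same sequence over part of their length, so that each could bind some RNA of the other gene. Capitals mark the bases they share in the stretch where they overlap, 32 of 37 bases.
CXCL1 second probe: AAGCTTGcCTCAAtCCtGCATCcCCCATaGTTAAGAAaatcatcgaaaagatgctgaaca
CXCL2 second probe: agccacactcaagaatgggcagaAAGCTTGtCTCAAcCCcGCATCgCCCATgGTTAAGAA
The longest unbroken run shared by any of the 64 pairs of probes of different chemokine genes was 9 bases, and no other pair shared more than 25 aligned bases. The first probes of CXCL1 and CXCL2 do not have this likeness to each other, and their differences were 0.27 and 0.34. Probes were compared with probes and not with the transcripts of the other genes. Binding across genes was therefore not tested for either pair.

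CXCL8, the main neutrophil chemokine and known also as IL8, had signals of 3846 (NC) and 3515 (si-THOC2) at its probe (chr4:74609265-74609324, plus strand), a difference of 0.18. CXCL3, also a ligand of CXCR2, had 1028 and 884 (chr4:74902702-74902761, minus strand), a difference of 0.09 that became -0.03 after normexp background correction. CXCL5, made by many epithelial cells, was dimmer, with 102 and 80.1 (chr4:74861898-74861957, minus strand), and its difference was -0.03. CXCL6 had signals of 2.95 (NC) and 3.20 (si-THOC2) at its probe (chr4:74703368-74703427, plus strand), not well above background on either array, and no fold is given.

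Over the 7 compared CXC probes the differences ran from -0.03 to 0.34 with a median of 0.24. Bright probes in general did not centre on 0 either, though they were not matched in brightness to these 7, and CXCL5 was dimmer than the limit used. On both arrays 9586 probes passed a log2 signal of 8, and these had a median difference of 0.07 and an SD of 0.22, and 35.4% of them were below 0. Under 6 other ways of scaling, centring or correcting the background, the median of the CXC probes stayed between 0.11 and 0.24, with 1 probe below 0 in 5 of them and 2 with normexp. These alternatives moved the median of all compared probes by less than 0.04, and all of them level the arrays against each other. With no scaling the median of the CXC probes was -0.07, with 6 of the 7 below 0. The median of all compared probes was then -0.28.

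**Figure D2:**
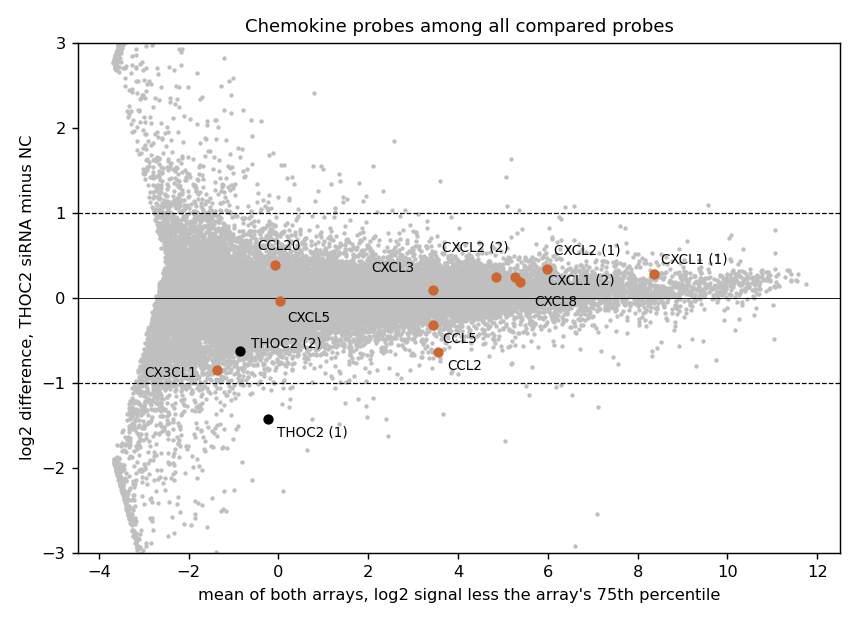
Log2 difference (THOC2 siRNA minus NC, vertical axis) against the mean scaled log2 signal of both arrays (horizontal axis) for all compared probes (grey), the chemokine probes (orange) and THOC2 (black), with dashed lines at a 2-fold difference in each direction. The CXC probes with strong signal lie just above 0 inside the grey band, CCL2 lies at -0.63 on its lower edge, CX3CL1 at -0.85 lies where the band is wide, and 328 compared probes fall outside the vertical range.

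CCL2, the main ligand of CCR2 on monocytes, was the member measured most often, since its probe (chr17:32584050-32584109, plus strand, at 17q12) was printed on 10 spots of each array. On the NC array 9 spots were used and 1 with an outlier flag was left out. Their signals ran from 1394 through a median of 1436 to 1522, a coefficient of variation of 2.61%. On the THOC2 siRNA array the 10 spots ran from 716 through 756 to 782, with a coefficient of variation of 3.21%. In these unscaled signals, every spot of the THOC2 siRNA array was below every spot of the NC array. Repeated spots measure the error within an array and not the difference between cultures.

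The mean signal of CCL2 was 1442 with NC and 749 with si-THOC2, a difference of -0.63, or 1.55-fold lower. The spots had SDs of 0.037 and 0.046 on the log2 scale. Repeated spots of 244 probes with a mean log2 signal over 8 gave a median SD of 0.059 for such a difference. Of the 285 repeated probes well above background on both arrays, 13.7% had spots that were lower with no overlap and 31.9% had spots that were higher with no overlap, so the separation alone is common. The size was less common. CCL2 was the only one of these 285 (0.351%) lower by that much, as were 0.490% of the 9586 bright probes named above and 2.24% of the 22207 probes measured on both arrays. Over the other scalings and background corrections the difference ran from -0.71 to -0.63.

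**Figure D3:**
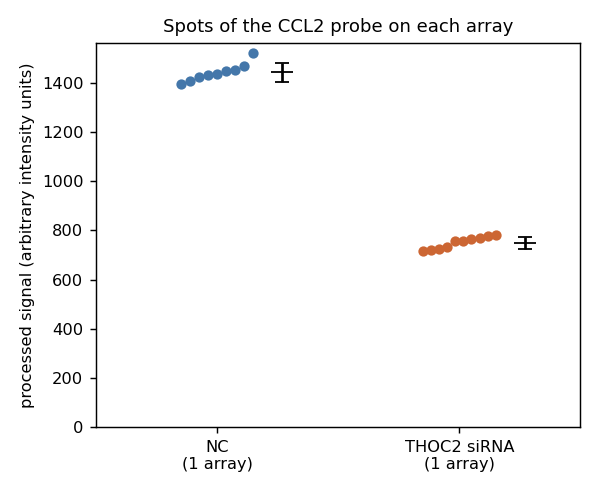
Processed signal (arbitrary intensity units, vertical axis from 0) of each spot of the CCL2 probe on the NC array (9 spots) and the THOC2 siRNA array (10 spots), sorted, with the mean and SD over spots as a bar beside them. The NC spots lie between 1394 and 1522 and the THOC2 siRNA spots between 716 and 782; the spots of a group come from 1 array and are not replicates of the condition.

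CCL5, which attracts T cells, lies on the same chromosome band as CCL2 (chr17:34199332-34199391, minus strand). It had signals of 1195 (NC) and 775 (si-THOC2), a difference of -0.32, or 1.24-fold lower. This was a modest shift, since 10.7% of the probes measured on both arrays were lower by as much. CCL5 stayed below 0 in all 6 other scalings and corrections, from -0.40 to -0.32. Its neighbourhood on the slide held 10.1% of probes called higher and 4.83% called lower, and centring by block of spots gave a value inside the range above.

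CX3CL1, or fractalkine, had the lowest difference of the members, -0.85, from a signal of 50.8 with NC to 22.8 with si-THOC2 (chr16:57418025-57418084, plus strand, at 16q21). It was 1.80-fold lower, as were 0.815% of the probes measured on both arrays. Its signal with si-THOC2 was not far above 15.9, the lowest signal called well above background there. The scanner error was 0.30 (SD), larger than the median of 0.20 for the members. With normexp background correction the difference was -0.25, so its size depended on how the background was taken off.

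CCL20, the ligand of CCR6 on dendritic cells and T cells, had signals of 81.3 (NC) and 85.7 (si-THOC2) at its probe (chr2:228681100-228681836, plus strand, at 2q36.3). The annotated span is longer than the probe, which has 60 bases. The difference was 0.39, the highest of the members, which 9.66% of the probes measured on both arrays reached or passed. It ran from 0.21 to 0.42 over the other scalings and corrections, and the scanner error was 0.22 (SD).

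**Figure D4:**
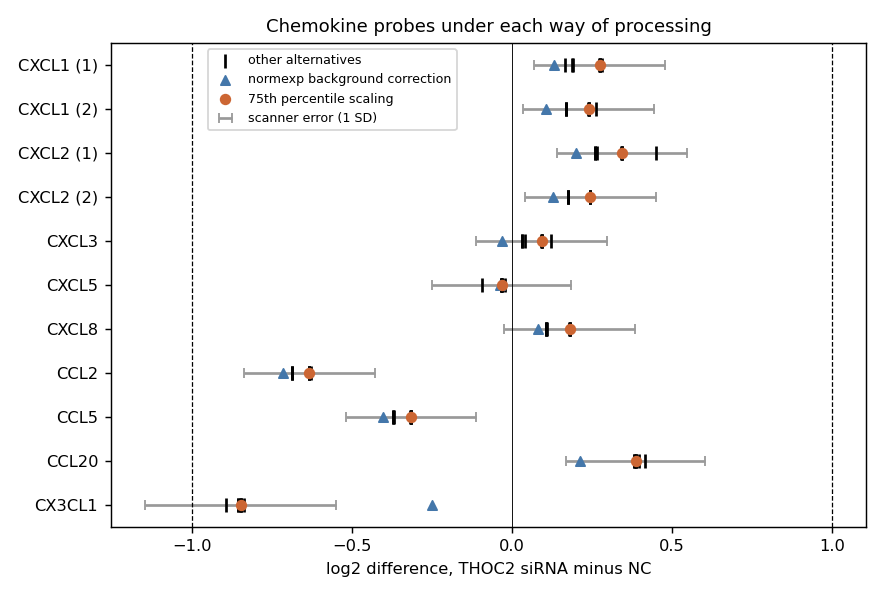
Log2 difference (THOC2 siRNA minus NC, horizontal axis) of the 11 compared chemokine probes under 75th percentile scaling (circles, with the scanner error as 1 SD), normexp background correction (triangles) and the other alternatives (bars), with dashed lines at 2-fold. All values of CCL2, CCL5, CXCL5 and CX3CL1 lie below 0, those of CXCL3 lie on both sides of it and all others lie above; for CX3CL1 normexp gives -0.25 in place of -0.85.

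The error that the scanner software gives per spot includes a proportional part of 10% and ran with a median of 0.20 (SD of the difference) over the members. By this measure 2 of the 11 probes, those of CCL2 and CX3CL1, lay over 2 SDs from 0, and 3 probes, those of CXCL3, CXCL5 and CXCL8, lay within 1 SD of it. No member spot was saturated. Apart from CCL2, each member probe was printed on 1 spot per array.

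The 10 genes were chosen as inflammatory chemokines, so the annotation they share follows from that choice and is given as a description. In the deposited gene ontology terms, all 10 are listed under chemokine activity, with 44 of the array's symbols, and all are listed as extracellular. Chemotaxis is listed for 9, without CXCL3, and inflammatory response for 9, without CX3CL1. On the genome, the 4q13.3 stretch from 74607982, shortly before the first CXC member probe, to 74964401 (hg19) held 16 probes. Of these, 8 were those of the members. Of the other 8, 6 were well above background on neither array, among them those of the platelet chemokine genes PF4, PF4V1 and PPBP, whose products are stored in platelets. Within 100 kb of the CCL2 probe, its neighbours CCL7, CCL8 and CCL11 were likewise on neither array, so CCL2 was the 1 of 10 probes there that could be compared. Of the 11 probes near CCL5, 5 were compared. Its neighbour TAF15 had signals of 2820 (NC) and 4641 (si-THOC2), a difference of 1.03. Over the other scalings and corrections it ran from 0.88 to 1.04, so it did not pass 2-fold in all of them. The other compared neighbours, MMP28 and RDM1, were also above 0. Near CCL20 the 2 other probes were on neither array. Near CX3CL1, the neighbour CCL17 was well above background with NC only, at 25.4, and CCL22 was on neither array. CCL17 was at least 1.29-fold lower with si-THOC2 (-0.37 on the log2 scale). Over the other scalings and corrections its difference ran from -0.75 to -0.07, so this bound did not hold in all of them.

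Other chemokines were mostly dim. Of 32 further chemokine genes on the array, 12 were well above background on at least 1 array. Among the CXC chemokines outside the members, 5 of 6 compared probes were below 0, with a median of -0.32, and none passed 2-fold. CXCL11, an interferon-induced ligand of CXCR3, had signals of 88.2 (NC) and 41.0 (si-THOC2), a difference of -0.80 that normexp background correction reduced to -0.37. CXCL10, a ligand of the same receptor, had differences of -0.03 and -0.32 at its 2 probes. CXCL16, a membrane-bound chemokine like CX3CL1, had 115 and 73.1 at one probe and 114 and 74.0 at the other, differences of -0.34 and -0.32. CXCL12, the ligand of CXCR4, had 19.8 and 18.9 at the only one of its 4 probes above background, a difference of 0.24. The median of these CXC chemokines was lower than that of the CXC members, with no test.

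Among the further CC and related chemokines, 5 of 8 compared probes were below 0 with a median of -0.18, and with probes on both arrays only the median was 0.12. CCL3, a macrophage inflammatory protein, had signals of 17865 (NC) and 13250 (si-THOC2), a difference of -0.12. CCL24 had 2749 and 2925, a difference of 0.40, and CCL16 had 326 and 340, a difference of 0.37. CCL15 was near background with 24.8 and 30.8, a difference of 0.62 (0.27 after normexp background correction). CCL28, a mucosal chemokine, had 86.4 and 57.3, a difference of -0.28. CCL19 was the 1 probe past 2-fold as measured, but its signals were 15.8 (NC) and 4.94 (si-THOC2), the latter below the limit of its array, and 15.8 does not pass that limit either, so that no fold is given. The CC chemokines as a group thus showed no single direction.

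The receptors of the members were mostly below background. CXCR1, CXCR2, CCR2 and CX3CR1 were well above background on neither array. CCR6, the receptor of CCL20, had signals of 80.8 (NC) and 65.7 (si-THOC2), a difference of 0.01. Of 22 receptor genes, 6 were compared, and their median was 0.07. CXCR4 had 33.8 and 45.1, a difference of 0.73 (0.33 after normexp background correction), and CCR10 had 580 and 380, a difference of -0.30. CXCR3 and XCR1 had differences of 0.13 and -0.09.

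The genes that switch chemokines on and off differed little between the arrays. Of 18 probes of NF-kB subunits and kinases, 15 were above 0 and 3 below, the median was 0.12 and none passed 2-fold. RELB, a subunit of the alternative NF-kB pathway, had signals of 33970 (NC) and 33464 (si-THOC2), a difference of 0.29. REL, which encodes the subunit c-Rel, had 95.1 and 55.4, a difference of -0.47. The adaptor gene TRAF2 had differences of 0.51 and 0.25 at its 2 probes, and IKBKG, the regulatory subunit of the IKK complex, had 0.27.

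NF-kB target and feedback genes lay on both sides, with 7 of 15 compared probes below 0 and a median of 0.01. ICAM1, an adhesion molecule, had signals of 4434 (NC) and 2606 (si-THOC2), a difference of -0.46. BIRC3, an inhibitor of apoptosis, had 3183 and 1899, a difference of -0.44. CYLD, a deubiquitinase that restrains NF-kB, had 60.8 and 29.3, a difference of -0.74 that normexp background correction reduced to -0.30. SOD2, a mitochondrial antioxidant enzyme, had 3815 and 4238, a difference of 0.46. ICAM1, BIRC3 and CYLD were thus below 0 and SOD2 above it. With 2 arrays no likeness of pattern between these genes and the chemokines can be measured.

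Among the cytokines and receptors that induce chemokines, 6 of 17 compared probes were below 0, the median was 0.08 and none passed 2-fold. IL1B, which encodes interleukin-1 beta, had signals of 905 (NC) and 556 (si-THOC2), a difference of -0.39. IL1RAP, the shared chain of interleukin-1 receptors, had differences of -0.18 and -0.50 at the 2 of its probes that were compared. TLR2, a receptor for bacterial lipoproteins, had 42.2 and 62.5, a difference of 0.88 that normexp background correction reduced to 0.45. TLR4, the receptor for lipopolysaccharide, had 0.54 at one probe and 0.10 at the other.

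Regulators of mRNA stability include proteins that act on the AU-rich parts of chemokine mRNAs. Of their 18 compared probes, 12 were above 0 and 6 below, with a median of 0.09 and none past 2-fold. CNOT1, the scaffold of the CCR4-NOT deadenylase, had a difference of -0.29. ZFP36L1, a protein that speeds decay of AU-rich mRNAs, had 0.22 and 0.13 at its 2 probes, ZC3H12A, an endonuclease that cuts inflammatory mRNAs, had 0.16, and TIA1 had 0.26 at the 1 probe measured on both arrays.

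Enzymes that release or trim chemokines lay on both sides, with 3 of 8 compared probes below 0 and a median of 0.12. MMP9, a gelatinase that can process CXC chemokines, had signals of 14249 (NC) and 20712 (si-THOC2), a difference of 0.85. ADAM10, which sheds CX3CL1 and CXCL16 from the membrane, had differences of 0.39 and 0.21 at its 2 probes. Cathepsin S (CTSS) had -0.25, and the collagenase gene MMP1 had 0.19. Over all 8 lists of chemokines, receptors, inducers, regulators and enzymes, 96 probes were compared. As measured, 1 was lower by 2-fold or more, that of CCL19, which had no fold at the detection limit and a difference of -0.04 with normexp, and none was higher.

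**Figure D5:**
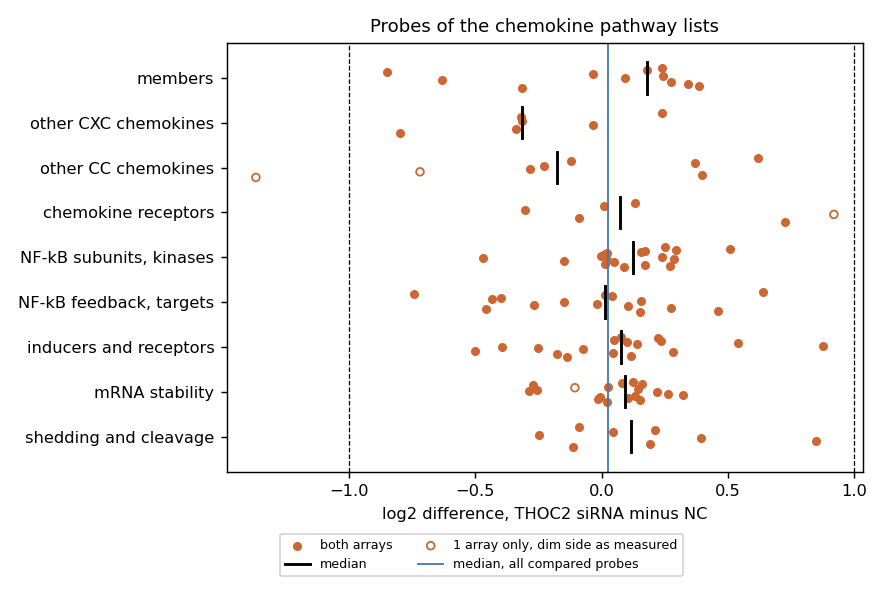
Log2 difference (THOC2 siRNA minus NC, horizontal axis) of each compared probe of the chemokine members and of the 8 further gene lists (rows), with filled circles for probes well above background on both arrays, open circles for probes well above background on 1 array only with the dim side as measured, and the median of each list as a bar, the median of all compared probes as a line and dashed lines at 2-fold. The members spread from -0.85 to 0.39 around a median of 0.18, and the medians of the other lists lie between -0.32 and 0.12.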

How the data were processed

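RNA of A375 cells with si-THOC2 or NC was measured on 1 single-colour array each. The authors deposited the scanner output of Agilent Feature Extraction (10.7.1.1, per the submitters' processing notes), with an intensity per spot after background subtraction (processed signal) and marks for outliers and signal well above background. The deposited files also hold log2 values normalized by the authors, which served as an alternative, and a comparison table with their fold changes, which was not used. Probe positions are those of the deposited annotation on hg19.

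Here, control spots and outlier-flagged spots were left out (147 and 168 on the NC and THOC2 siRNA arrays), log2 signals were averaged over the spots of each probe, and each array's 75th percentile was subtracted. A probe well above background on 1 array only was given as a bound, with the dim side set at its own signal or the lowest detected one of its array, whichever was higher. A gene with several probes was given as the mean of those compared. A call was a 2-fold difference. No test was possible with 1 array per condition, and the number of arrays limits the precision. Of the 308 negative control spots, 2 and 3 were well above background on the NC and THOC2 siRNA arrays.

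The members, gene lists and their alternatives were chosen with earlier results of these data known. From each list, up to 4 genes with the largest difference among those on both arrays were named, with any past 2-fold and receptors of the members. Some results under this rule are not reported here. CCL3, CCL17, the neighbours at each locus and the cell type markers with values were named outside this rule, after their values were seen. A further 3 listed genes were not analysed here. Alternatives were quantile normalization, median scaling, lowess centring (span 0.3), normexp (offset 50), the authors' values, centring by block (16 by 8), detection on both arrays, no detection filter, signals at the detection limit where dimmer, a fold of 3 and genes in place of probes. The scripts were tested on simulated data. Calculations used limma 3.58.1 (R 4.3.3), numpy 2.4.6, pandas 2.3.3 and statsmodels 0.14.6 (Python 3.11.15).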

Additional observations from a re-analysis of the deposited data

Results flagged for a closer look

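One probe at the CXC cluster has no gene symbol in the deposited annotation and so is not among the members. It lies at chr4:74714496-74714555 (hg19, plus strand), 11128 bases beyond the probe of CXCL6, and its description names the precursor of CXCL6. It was picked out because it gave a signal outside the main measurement, well above background with si-THOC2 only. Its signal was 2.95 with NC and 38.1 with si-THOC2, at least 3.22-fold higher, while the probe that carries the symbol CXCL6 was well above background on neither array. On the log2 scale the bound of the probe without a symbol was 1.69. Its scanner error was 1.46 (SD of the difference), with 1 spot per array. With normexp background correction the same probe was 1.85-fold higher, under that bound and under 2-fold. In its part of the slide 9.35% of the compared probes were higher by 2-fold or more, and the part of that in this value was not tested.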

How the results depend on the processing

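No paired analysis was possible because each condition has a single array. No chemokine probe passed 2-fold in either direction under any of the 9 alternatives, nor at a fold of 3 or over genes. The median of the members stayed within the scanner error of 0.18 in all 9 alternatives. The mean of the THOC2 probes moved from -1.03 to -0.51 with normexp background correction. With no detection filter the median of the other CXC chemokines moved from -0.32 to 0.10, that of the other CC chemokines from -0.18 to 0.42 and that of the receptors from 0.07 to 0.44, values which then rest mostly on probes near background. With probes on both arrays only, the other CC chemokines had a median of 0.12, since fewer probes were compared. The cause of the changes under normexp was not tested. Of 113 values of the main results, 108 counted as unmoved, and of 413 values of single genes and probes, 403 did. Unmoved meant a shift under the scanner error or, for the counts of 2-fold probes, the same count. Part of these values could not move, since changing detection leaves a probe measured on both arrays as it is. The totals therefore do not measure how robust the results are. Weak signals limit CX3CL1, CXCL5 and CCL20 most, and the probe with the symbol CXCL6 was below background on both arrays. The culture, the transfection and the array of each condition cannot be told apart.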

Other observations

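A second probe without a gene symbol at the CXC cluster, described as interleukin 8 and placed at chr4:74607982-74608041 (hg19, plus strand), had signals of 34.2 (NC) and 22.3 (si-THOC2). Its difference was -0.30 (scanner error SD 0.32), against 0.18 at the probe that carries the symbol CXCL8. The melanoma marker S100B, a calcium-binding protein, had signals of 199 (NC) and 102 (si-THOC2), a difference of -0.66. MLANA, a melanocyte antigen, was well above background at 1 probe with si-THOC2 only, at 18.7, and at least 1.58-fold higher (0.66 on the log2 scale). Over the other scalings and corrections the lowest difference of this probe was 0.57, under that bound. The other MLANA probe was well above background on neither array. The keratinocyte markers went both ways. KRT14 had 83.9 and 104 at the probe measured on both arrays, a difference of 0.62. Its other probe was above background with si-THOC2 only and at least 2.28-fold higher (1.19 on the log2 scale). The lowest difference of that probe over the other scalings and corrections was 0.44, under the bound. The bright KRT10 had 32306 and 20623, a difference of -0.34. Of the 6 fibroblast probes the 1 compared was DCN, which encodes the matrix protein decorin, at 1.56. Over the other scalings and corrections this difference ran from 0.87 to 1.63.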
